A study of Mus musculus with 4 samples.

Results

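miR-218 is a miRNA encoded by a pair of mouse genes, Mir218-1 inside Slit2 and Mir218-2 inside Slit3, and it was followed here in extracellular vesicles from C2C12 cells, a mouse myoblast line. Its rows were taken by identifier: the 2 rows of the mature 5p miRNA (MIMAT0000663) and the 3p arm of each hairpin, which start within 60 bases of them, 4 rows of the 2110 in the table. The miRNA was selected on its lower count in vesicles of damaged cells in these same libraries. Its difference between the groups is therefore given as a description, without a p-value. All cells had the genotype WT and grew in medium with 10% fetal bovine serum. The damaged group (2 libraries) received hydrogen peroxide, and the WT group (2 libraries) carries the treatment label WT. The labels give neither dose nor time of exposure, nor whether replicates were separate cultures, so the spread between replicates may be technical.

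Slit2 and Slit3 are secreted ligands of the Robo receptors, which steer growing axons and migrating cells. miR-218 is carried in their introns and in vertebrate cells represses Robo1, so it is known as a feedback regulator of the pathway that its host genes act in. It is abundant in mouse motor neurons, and it is counted among tumour-suppressor miRNAs because many human cancers hold less of it. Of the hairpin's arms the 5p is the usual mature form, and the 3p is the arm that is mostly discarded.

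The sequences below are shown because identity at the 5p arm and difference at the 3p arm decide what the counts can say about the gene copies. They are RefSeq entries on GRCm38.p6, and capitals mark the seed, bases 2 to 8, by which a miRNA recognises its targets.
miR-218-5p: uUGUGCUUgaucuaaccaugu
miR-218-1-3p: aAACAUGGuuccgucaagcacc
miR-218-2-3p: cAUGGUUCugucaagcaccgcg
In the hairpins, capitals mark the 5p and the 3p arm.
Mir218-1: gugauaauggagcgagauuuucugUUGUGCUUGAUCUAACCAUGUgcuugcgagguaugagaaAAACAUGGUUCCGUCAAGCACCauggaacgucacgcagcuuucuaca
Mir218-2: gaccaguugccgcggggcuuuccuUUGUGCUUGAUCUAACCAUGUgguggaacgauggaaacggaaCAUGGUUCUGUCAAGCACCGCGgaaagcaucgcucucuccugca

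The 5p arm lies at chr5:48223966-48223986 for Mir218-1 and at chr11:35616840-35616860 for Mir218-2, both on the plus strand (mm10), the strand of the host genes. In GENCODE vM21 the 5p arm of Mir218-1 was intronic in all 7 Slit2 transcripts that span it, for example in intron 16 of the protein-coding Slit2-202, 666 bases before the next exon. Mir218-2 was in intron 14 of the only Slit3 transcript that spans it, an intron of 9571 bases. The 5p arm is the same in all 21 bases. The hairpins, each of 110 bases, are identical at 81 aligned bases (73.6%), and next to the 5p arm they differ at the base before it and from the second base after it. The 3p arms overlap in 19 bases and differ there by C12U, with positions counted from the 5′ end of miR-218-1-3p and the base of that arm first. A 5p read of the annotated length thus fits both genes, whereas a 3p read can tell them apart. No member row shares bases with another entry of the table. Among rows with a sequence, the only other with the seed of miR-218-5p is miR-7002-3p, which was listed at 0 counts in all 4 libraries. The seed of miR-218-1-3p is shared by miR-496b, also listed at 0, and that of miR-218-2-3p by no other row with a sequence.

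Library totals ranged from 4577668 to 7638663 counts, lowest in WT replicate 1. The muscle list took 29.6% and 33.6% of counts in the WT libraries and 35.7% and 38.3% in the damaged ones, led by miR-206-3p, a skeletal muscle miRNA, so markers of the labelled cell type were present. The neural and motor neuron list took 0.0760% and 0.0873% in WT and 0.122% and 0.161% in damaged. Of its 10 members in the table, miR-9-5p, miR-9-3p and miR-219a-5p were listed at 0, but each of their rows shares bases with an entry on the opposite strand, so their reads could not be counted. miR-137-3p, without such an overlap, had 1 count in damaged replicate 1 and 0 elsewhere. miR-124-3p, also on this list, has no row in the table. The part of other cell sources in the result for miR-218 was not tested, nor was that of bovine vesicles from the serum.

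miR-218-5p was among the more abundant miRNAs, 47 in order of mean level of the 483 tested mature IDs, and both damaged libraries held less of it than both WT libraries. The Mir218-1 row had 4735 and 6363 counts in WT replicates 1 and 2 and 3460 and 3994 counts in damaged replicates 1 and 2. The Mir218-2 row had 4644, 6283, 3311 and 3877 counts in the same order. Summed and scaled to depth (CPM, counts scaled to library size with TMM), miR-218-5p stood at 2013 CPM in WT replicate 1, 1692 CPM in WT replicate 2, 978 CPM in damaged replicate 1 and 1071 CPM in damaged replicate 2. WT replicate 1, the shallowest library, was the highest, damaged replicate 1 was the lowest, and the groups did not overlap.

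WT libraries averaged 1853 ± 227 CPM and damaged libraries 1024 ± 65.9 CPM (SD, n = 2), a fitted 1.81-fold lower level after damage. The fitted log2 fold change was -0.85 ± 0.14 (SE), against a median of 0.06 over all 483 tested mature IDs, whose lower and upper quartiles were -0.62 and 0.61. In the order of level miR-218-5p ranked 37 and 43 in the WT libraries and 57 and 55 in the damaged libraries. By mean its neighbours were miR-451a at 1513 CPM and miR-93-5p at 1444 CPM above it, and miR-98-5p at 1429 CPM and miR-872-5p at 1398 CPM below it, against 1438 CPM for miR-218-5p. These levels lie closer together than the SD of miR-218-5p in WT. A lower level can mean less miR-218 per vesicle, fewer vesicles that carry it or more of other miRNAs, and these cannot be told apart in CPM.

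**Figure D1:**
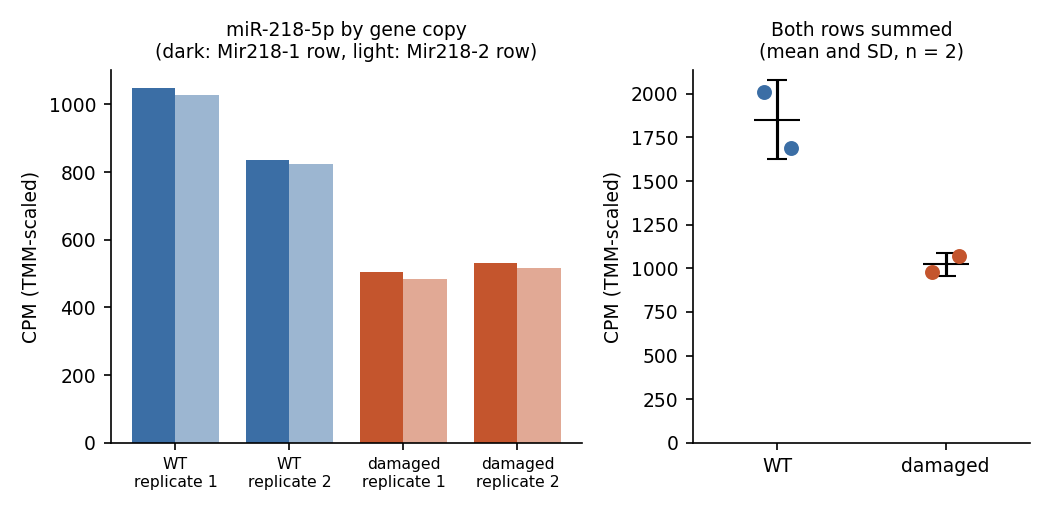
Left, TMM-scaled CPM of each miR-218-5p row in each library (dark bars Mir218-1, light bars Mir218-2); right, CPM of both rows summed, with points for libraries and the mean and SD of each group (n = 2). The rows run level within a library, and the damaged libraries (978 and 1071 CPM) lie below the WT libraries (1692 and 2013 CPM).

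As single rows, Mir218-1 had a log2 fold change of -0.86 ± 0.16 (SE) and Mir218-2 one of -0.89 ± 0.16 (SE). Both rows were among those edgeR's quasi-likelihood test called lower at an adjusted p under 0.05, which were 5.41% of 536 tested rows, and the summed miRNA was among the 5.8% of 483 tested IDs called lower. That call was known when the miRNA was picked, and nothing is read from it. It was lost without any 1 of the 4 libraries, for the rows and for the sum. These fits, with 1 library in a group, also called fewer rows over the whole table, so the loss is not particular to miR-218. The log2 fold change of the sum was -1.03 to -0.84 in them. Both damaged libraries lay below both WT libraries for 29.6% of tested IDs. The mature sequence holds 38.1% G and C, against a median of 47.8% over the 415 tested IDs with a sequence. After a correction of the counts for that content the log2 fold change was -0.74 ± 0.14 (SE), the summed miRNA was still called, and neither single row was. Rows called lower were then 17 of 446 tested, against 29 of 536 without the correction. The share of IDs called after the correction is not given here, and nothing is read from these calls either.

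The identical rows divided the 5p reads almost evenly. Of the miR-218-5p counts in WT, the Mir218-1 row took 50.5% in replicate 1 (exact Clopper-Pearson 95% interval 49.5 to 51.5) and 50.3% in replicate 2 (interval 49.4 to 51.2). Among the damaged libraries it took 51.1% in replicate 1 (interval 49.9 to 52.3) and 50.7% in replicate 2 (interval 49.6 to 51.9). Each of these intervals holds 50%. Over the 4 libraries together it took 18552 of 36667 counts, or 50.6% (50.1 to 51.1), which lies just above an even split. The 27 mature miRNAs with 2 identical rows, at least 1000 counts and bases of their own had a median of 49.3% of counts in the smaller row, and miR-218-5p had 49.4%. The exception was miR-92a-3p, with 8.18% of its 58183 counts in the smaller row, and the other 26 lay from 44.3% to 49.99%. The 5p counts do not say how much Slit2 or Slit3 contributed.

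**Figure D2:**
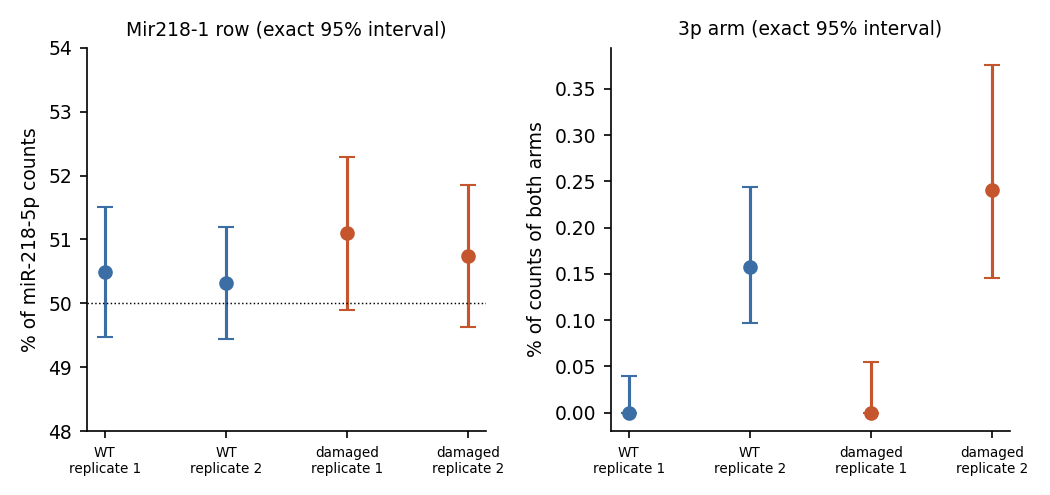
Share of the Mir218-1 row in miR-218-5p counts (left, percent, dotted line at 50, axis from 48 to 54) and share of 3p counts in the counts of both arms (right, percent) in each library, with exact 95% intervals. The row share lies between 50.3% and 51.1%, and the 3p share is 0 in both replicates 1 and 0.158% and 0.241% in replicates 2.

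The 3p arm was rare and, where present, was counted at the Slit2 copy. miR-218-1-3p (chr5:48224005-48224026) had 20 counts in WT replicate 2 and 19 in damaged replicate 2, and 0 in WT replicate 1 and damaged replicate 1. miR-218-2-3p (chr11:35616882-35616903) had 0 counts in all 4 libraries, where a count of 0 allows up to 3 counts, or 0.393 to 0.655 CPM. The 3p arm thus made up 0.158% of the counts of both arms in WT replicate 2 (exact 95% interval from 0.0965 to 0.244), and its share was 0.241% in damaged replicate 2 (interval from 0.145 to 0.376). In the other libraries the 0 counts allow, taken as 3 counts, a share of up to 0.0320% in WT replicate 1 and 0.0443% in damaged replicate 1. The exact 95% upper limits there, which the plot of shares draws, are 0.0393% and 0.0545%. Both kinds of limit lie below the intervals of replicates 2, so 3p counts were present in both replicates 2 and not detected in both replicates 1, whatever the group.

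In CPM miR-218-1-3p stood at 2.63 in WT replicate 2 and 2.53 in damaged replicate 2, and its fitted log2 fold change was -0.10 ± 2.09 (SE). This row passed the filter on low counts and miR-218-2-3p did not, so 3 of the 4 rows were tested. Presence with at least 10 counts in both replicates 2 and 0 in both replicates 1 was found for 1 other row of the table, miR-331-5p, and the opposite pattern for 1 row, miR-32-3p. What separates the replicate numbers was not tested. Intervals and limits cover counting error only, since the labels name no molecular identifiers.

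Other miRNAs of 2 gene copies whose opposite arms differ give a scale for this arm use. There were 23 of them whose main-arm rows shared no bases with another entry. Their opposite arms held up to 8.72% (miR-125b-5p) of the counts of both arms, with a median of 0.335%. Apart from those of miR-218, opposite-arm rows were not screened for overlap. A 0 in such a row may thus stand for reads that could not be counted. miR-218 with 39 of 36706 counts over the 4 libraries, or 0.106%, was in place 7 from the lowest. An exact 95% interval for the sum, 0.0756 to 0.145, covers counting error and not the gap between replicates 1 and 2: without damaged replicate 2 the share was 0.0694%. Leaving out each library moved its place to between 7 and 10, below the median each time. Of the 6 placed lower, 3 had no opposite-arm count: miR-181b-5p beside 60511 counts of the main arm, and miR-135a-5p and miR-669d-5p beside 328 and 184. Since a 0 allows up to 3 counts, 328 and 184 are too few to place miR-135a-5p and miR-669d-5p below miR-218. Those of the 6 with opposite-arm counts were miR-196a-5p at 0.00798%, miR-26a-5p at 0.0192% and miR-16-5p at 0.0804%. With at least 10 opposite-arm counts, a minimum that removes low shares, 19 were left and their median was 0.687%. In 10 of the 19 both opposite arms had counts, and in the other 9, miR-218 among them, 1 arm was at 0. miR-7a-5p, another tumour-suppressor miRNA of 2 copies, showed the same form at a higher share, with 2862 counts of miR-7a-1-3p and 0 of miR-7a-2-3p, 2.52% of both arms. From the same list, miR-16-5p had it at a lower share, with 0 counts of miR-16-1-3p and 52 of miR-16-2-3p. miR-29b-3p, also of that list, had counts at both opposite arms, 162 of miR-29b-1-5p and 35 of miR-29b-2-5p. With 39 counts the precision of the locus reading for miR-218 is low, and a 3p count measures what remains of that arm in vesicles, not transcription of the host gene.

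**Figure D3:**
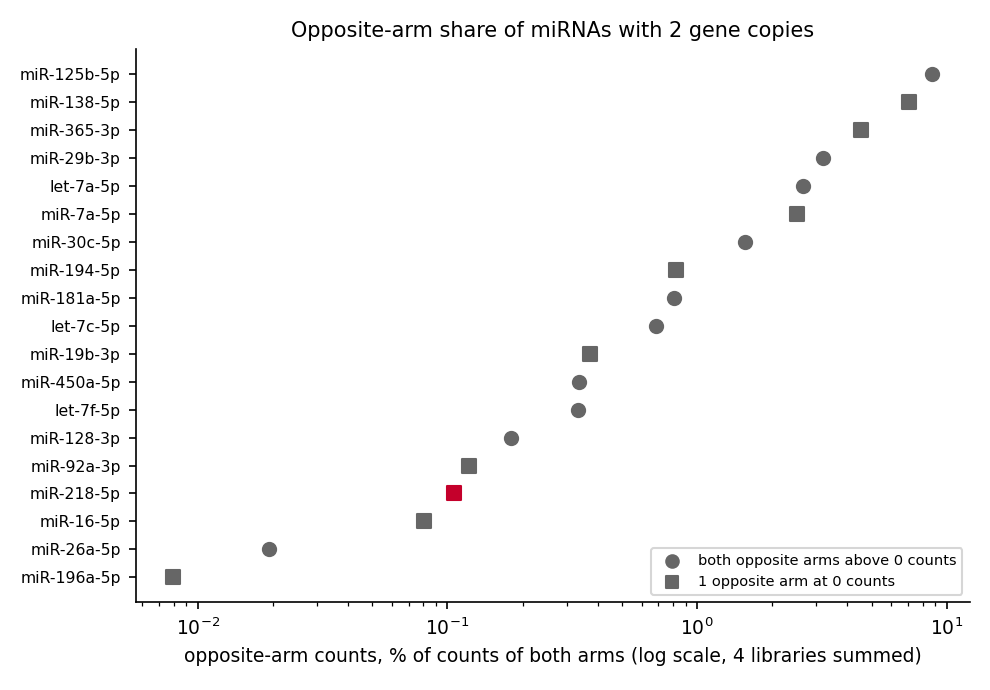
Opposite-arm counts as a percent of the counts of both arms (log axis, 4 libraries summed) for the 19 miRNAs with 2 gene copies and at least 10 opposite-arm counts; circles have counts at both opposite arms, squares at 1 of them, and miR-218-5p is red. miR-218-5p lies at 0.106%, with 3 of those plotted lower; the 3 with 0 opposite-arm counts and miR-103-3p with 5 are not plotted.

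The mature miRNAs whose profile over the 4 libraries was most like that of miR-218-5p were found by the root mean square difference of log2 CPM, each centred on its own mean. miR-199b-3p and miR-199a-3p, which share 1 sequence, came closest with 0.03 for each. Reads of that sequence fit the rows of both IDs, so these are not separate matches. miR-199a-3p stood at 33127 and 27889 CPM in WT replicates 1 and 2 and at 15717 and 18339 CPM in damaged replicates 1 and 2, far above miR-218-5p in level. Like miR-218-5p it was highest in WT replicate 1 and lowest in damaged replicate 1. The next were miR-28a-3p and miR-99b-3p, at 0.05 each, and miR-5099-3p at 0.08. miR-28a-3p had 373 and 286 CPM in WT and 178 and 186 CPM in damaged. These 5 IDs had log2 fold changes of -0.75 to -0.86, and over 4 libraries such likeness is a description of level only.

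**Figure D4:**
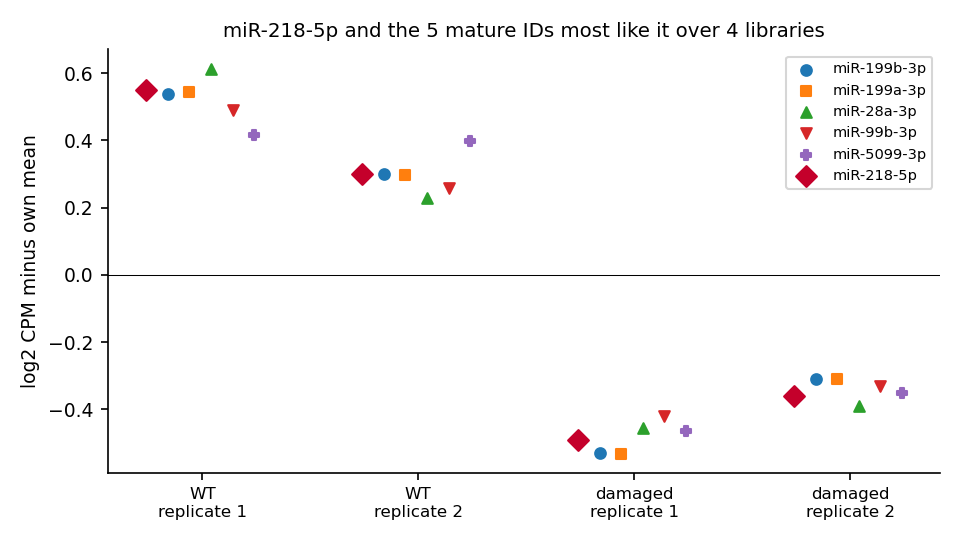
log2 CPM minus the mean of the same miRNA over the 4 libraries, for miR-218-5p (red diamonds) and the 5 mature IDs most like it, offset sideways for legibility. All 6 are above their mean in both WT libraries and below it in both damaged libraries.

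Among the tumour-suppressor list, to which miR-218 is counted but of which it was left out here, members went both ways. Of 17 tested members 2 fell (miR-7a-5p and miR-34a-5p), 2 rose (miR-34b-3p and miR-146a-5p) and 13 did not pass edgeR's test, against 5.8% called lower and 4.35% called higher of all 483 tested IDs. The median log2 fold change of the list was 0.13, against 0.06 over all tested IDs. miR-7a-5p, which restrains growth factor signalling, averaged 6411 ± 24.7 CPM in WT against 2313 ± 312 CPM after damage (SD, n = 2), or -1.47 ± 0.14 (SE) as a log2 fold change. miR-34a-5p, a p53-responsive miRNA, averaged 16460 ± 123 CPM in WT against 10356 ± 238 CPM after damage (SD, n = 2), or -0.67 ± 0.11 (SE) as a log2 fold change. Its most abundant member, miR-143-3p, stood at 21770 ± 999 and 20346 ± 2114 CPM (SD, n = 2). For 4 of the 17 both damaged libraries lay below both WT libraries and for 5 above, with 29.6% of all tested IDs in each direction.

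Among other miRNAs linked to neurons, of 6 tested members of the neural and motor neuron list 1 rose, miR-212-3p, 0 fell and 5 did not pass edgeR's test, against 4.35% called higher and 5.8% called lower of all 483 tested IDs. The median log2 fold change was 0.61, against 0.06 over all. At an unadjusted p under 0.05 the counts were 3 higher and 0 lower, against 13.9% and 16.8% of all tested IDs. DESeq2 called 2 of the 6 higher and 0 lower, against 8.41% and 12.3% of the 464 IDs to which it gave an adjusted p. limma-voom called 1 higher and 0 lower, against 5.38% and 6.63% of 483. miR-128-3p, the most abundant, averaged 618 ± 89.4 CPM in WT against 1060 ± 223 CPM after damage (SD, n = 2), and miR-212-3p, which is induced by neuronal activity, at 95.6 ± 17.5 and 221 ± 46.4 CPM (SD, n = 2). Negative log2 fold changes were fitted for miR-129-5p, -0.08 ± 0.25 (SE), and miR-153-3p, -0.29 ± 0.40 (SE). Both damaged libraries lay above both WT libraries for 4 of the 6, against 29.6% of all tested IDs. Of 7 tested muscle-enriched miRNAs 2 rose by edgeR's test, miR-133a-3p and miR-133b-3p, against 4.35% of all tested IDs, and 5 did not pass. Their median log2 fold change was 0.65. DESeq2 and limma-voom each called 4 of the 7 higher, against 8.41% and 5.38% of all IDs they tested. miR-206-3p stood at 307199 ± 36592 and 351935 ± 19706 CPM and miR-133a-3p at 4213 ± 356 and 9306 ± 188 CPM (SD, n = 2). Differences between miR-218-5p and these lists were not tested.

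**Figure D5:**
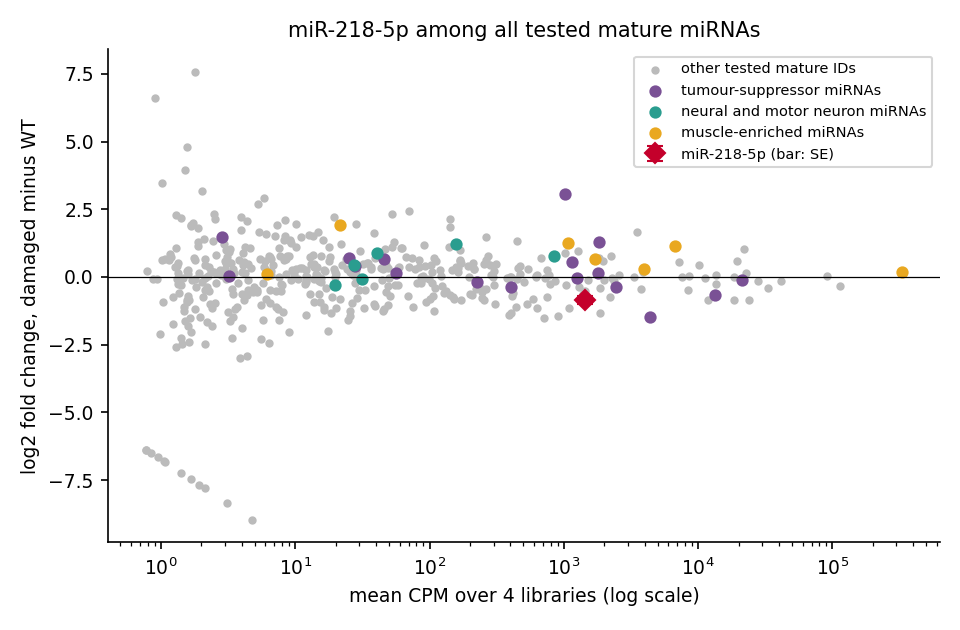
log2 fold change (damaged minus WT, edgeR) against mean CPM (log axis) for the 483 tested mature IDs, with the muscle, neural and tumour-suppressor lists coloured and miR-218-5p as a red diamond with its SE. Points of low CPM far from 0 include IDs with 0 counts in a group, whose fitted values are no measure of size; miR-218-5p lies at 1438 CPM and -0.85.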

How the data were processed

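Small RNA libraries of C2C12 vesicles, collected by differential centrifugation per the labels, were analysed from the deposited table of read counts per mature miRNA row, 1 column per library. These counts came from featureCounts 2.0.1, per the file headers, run without strand and without options for multi-mapping or overlapping reads. FastQC and BWA on mm10 stand in the submitters' processing notes. For the BWA version and adapter trimming, nothing is stated.

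Rows were named by exact coordinates in RefSeq (1734 rows), by another copy of the same ID (6) or by the GENCODE vM21 hairpin (360), and 10 were not named. edgeR 4.0.16 in R 4.3.3 tested all rows, and separately all IDs with copies summed, by quasi-likelihood with TMM scaling, a filterByExpr minimum of 10 counts, no covariate, and adjusted p (Benjamini-Hochberg) under 0.05 as the threshold. Each set has its own scaling. SE is the log2 fold change over the square root of F. The tested rows held 99.98% of counts in the library with the lowest share. The GC correction used a loess curve per library on the 446 tested rows with a sequence (83.2%).

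Named miRNAs were the member rows, the 5 most like profiles, the 2 next above and below in level, the 2 most abundant members of each list, rows sharing a seed, and miRNAs of 2 copies with at least 10 opposite-arm counts. Further list members, and miRNAs of 2 copies below that minimum, were named after their values were seen. The members, lists and tests were chosen with earlier results of these data known. Of the blood cell and liver, endothelial and epithelial lists the values stand among the closing observations. Alternatives were other scalings, filters and tools (DESeq2 1.42.0, limma 3.58.1), the replicate number as a block, the GC correction and each library left out.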

Additional observations from a re-analysis of the deposited data

How the results depend on the processing

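The log2 fold change of summed miR-218-5p stayed negative in all 10 other settings on 4 libraries, from -1.08 to -0.74, and moved by more than the replicate SD (0.14) with upper quartile scaling, to -1.08. Leaving out each library gave -1.03 to -0.84, with -1.03 without WT replicate 2. The single rows ranged from -0.94 to -0.71 on 4 libraries. miR-218-1-3p had no stable direction: without damaged replicate 1 it was 0.81, without WT replicate 2 it was 6.03, and without damaged replicate 2 it was -6.11, since single libraries hold its counts.

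The call counts depend on the setting. From 22 rows higher and 29 lower they went to 63 and 68 with no filter, 40 and 51 with at least 10 CPM in 2 libraries, 45 and 64 with DESeq2, 35 and 44 with limma-voom and 8 and 17 with the GC correction; upper quartile scaling gave 48 lower. Leaving out each library gave 0 to 11 higher and 0 to 19 lower. The count was 0 by edgeR when WT replicate 1, WT replicate 2 or damaged replicate 1 was left out, beside 103, 124 and 144 rows with an unadjusted p under 0.05; the other tools were not run on 3 libraries. The cause was not tested. Fits that left out a library pool the spread, so a lone library is taken to vary like the other group. With the replicate number as a block 56 rows were higher and 71 lower, with the GC correction added 39 and 50, and miR-218-5p had -0.85 and -0.74 in these. The labels do not say that numbers mark a shared batch, and deviations of same-numbered libraries had a correlation of 0.02 across 483 IDs, so the numbers were not taken as pairs.

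Leaving out each library gave a 3p share of 0.0694% to 0.143% and a Mir218-1 row share of 50.5% to 50.7%. The 39 counts of the 3p arm limit its precision. The 2 deeper libraries hold them. Damaged replicate 1 had 0 among 6901394 counts and damaged replicate 2 had 19 among 7350345. The part of depth in this was not tested. The place among miRNAs of 2 copies was compared after the data were seen.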

Other observations

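Of 6 tested markers of blood cells and liver 0 passed edgeR's test, against 4.35% called higher and 5.8% called lower of all 483 tested IDs. DESeq2 called 0 of them, against 8.41% higher and 12.3% lower of 464 IDs. limma-voom called 0, against 5.38% and 6.63% of 483. At an unadjusted p under 0.05 the counts were 3 higher and 0 lower, against 13.9% and 16.8% of all 483 tested IDs. Both damaged libraries lay above both WT libraries for 4 of the 6 and below for 1, against 29.6% of all tested IDs in each direction. The median log2 fold change was 0.47, against 0.06 over all. miR-451a, a red cell miRNA of nearly the level of miR-218-5p, averaged 1575 ± 80.1 CPM in WT against 1452 ± 47.9 CPM after damage, and miR-192-5p at 164 ± 0.889 and 219 ± 1.88 CPM (SD, n = 2). miR-144-3p, from the same transcript as miR-451a, had 0 counts in both WT libraries and 12 and 14 counts in the damaged ones. miR-142a-5p had 1 and 0 counts in WT replicates 1 and 2 and 21 and 22 in damaged replicates 1 and 2. The list took 0.189% and 0.168% of counts in the WT libraries and 0.177% and 0.170% in the damaged ones. miR-142a-3p and miR-122-5p were listed at 0, as were both endothelial entries, miR-126a-3p and miR-126a-5p, and each of these rows shares bases with an opposite-strand entry, so that their reads could not be counted. Of the epithelial markers, miR-200c-3p had 0 and 22 counts in the WT libraries and 39 and 21 in the damaged ones, and miR-200a-3p, miR-200b-3p and miR-205-5p had at most 6 counts in any library.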
